A study of Rattus norvegicus with 13 samples.

Results

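The genes that encode the subunits of oxidative phosphorylation were examined in cultured rat lenses. Their probe sets were those with 1 gene symbol in the array annotation that begins with Nduf, a letter a, b, c, s or v and a digit (complex I), is Sdha, Sdhb, Sdhc or Sdhd (complex II), or begins with Uqcr (complex III), Cox4 to Cox8 (complex IV) or Atp5 (complex V). The rule leaves out the assembly factors named Ndufaf or Sdhaf, and also Ndufab1 and Cyc1, which are subunits of complexes I and III. Genes with more than 1 such probe set are given by the brightest of them on average. The rule found 90 genes among the 18166 genes with such a probe set. Genes with a log2 signal of 5 or more on any of the 13 arrays were analysed, which were 72 of the 90 genes and 6778 genes in all, and these are called the kept genes. The kept genes were 34 of 39 in complex I, 4 of 4 in complex II, 7 of 9 in complex III, 11 of 18 in complex IV and 16 of 20 in complex V. Complexes were assigned by symbol alone, also for Ndufa4 and Ndufa4l2, which may not match the complex that holds the protein. Among the 72 are the pseudogenes Ndufs6-ps1 (complex I), Uqcr10-ps1 (complex III) and Atp5hl1 (complex V). The 18 genes under 5 on every array were tissue isoforms of complex IV (Cox4i2, Cox6b2, Cox7b2, Cox8b and Cox8c), Uqcrb, whose probe set reached only 4.04, and gene copies and pseudogenes of complexes I, III, IV and V. A further 8 probe sets carry several symbols and were not members.

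Oxidative phosphorylation takes place in the inner mitochondrial membrane. Complex I oxidises NADH and complex II oxidises succinate, complexes III and IV pass the electrons on to oxygen, and complex V, the ATP synthase, uses the proton gradient built by complexes I, III and IV to make ATP. In the lens, mitochondria are found in the epithelium and in the young fibre cells of the outer cortex, whereas mature fibre cells lose their organelles and depend on glycolysis. Most subunits are encoded in the nucleus. The subunits encoded in mitochondrial DNA were not analysed here.

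The lenses came from 6-week-old male Sprague Dawley rats and were cultured whole. The control was cultured for 4 days without galactose (n = 1), and the galactose lenses were cultured in 30 mM galactose for 4 days (galactose Day 4, n = 3) or 6 days (galactose Day 6, n = 3). A further 6 lenses were cultured for 6 days with 30 mM galactose and were given inhibitors of histone acetyltransferases after opacity had formed, with n = 1 for each treatment: 40 µM C646, 10 µM CBP30, 80 µM CPTH2, C646+CPTH2, CBP30+CPTH2 and 50 µM TH1834. The study describes C646 and CBP30 as inhibitors of p300, CPTH2 as an inhibitor of Gcn5 and TH1834 as an inhibitor of Tip60. The source label of the CBP30+CPTH2 lens names CPTH2 for both compounds, so its group was taken from the title and its CBP30 dose from the study's methods. By the study's methods the inhibitors were dissolved in DMSO, and the other lens of each pair received only DMSO. The sample labels name no pairs, so inhibitor lenses were compared with galactose Day 6 without pairing. The sources do not say whether replicates came from separate animals, so p-values measure the spread between these samples, which may be technical. Galactose Day 6 differed from the control in culture time as well as in galactose.

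Every array is a whole lens. The 8 lens fibre markers with a probe set were all kept, with mean log2 signals of 10.31 to 10.67, and 8 of 10 lens epithelium markers were kept, with means of 4.45 to 6.85 over the 10. Of the pigment epithelium, photoreceptor and vascular endothelium markers, 7, 5 and 3 had a probe set and 0 were kept. Of those with a probe set, 1 of 6 macrophage and 1 of 4 skeletal muscle markers was kept. The red blood cell markers had no probe set. Precision is limited by how few arrays there were. Conditions with 1 array borrowed the spread of galactose Day 4 and Day 6, except where inhibitor arrays were grouped. There the spread also held differences between treatments. Signals of different probe sets were not compared with each other, so no order of complexes by level is given. In these bulk samples, fewer cells of a type and less RNA per cell cannot be told apart.

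Many of the kept genes followed a similar course over the arrays, and Ndufs1 of complex I was the furthest from it. The mean log2 signal of the 72 genes was 7.39 in the control, 7.49, 7.45 and 7.34 in galactose Day 4 replicates 1 to 3, and 7.70, 7.38 and 7.33 in galactose Day 6 replicates 1 to 3. It was 7.42 with C646, 7.39 with CPTH2, 7.29 with C646+CPTH2 and 7.34 with TH1834. It was 7.002 both with CBP30 and with CBP30+CPTH2. Both arrays with CBP30 therefore lay below the other 11, which ran from 7.29 to 7.70, and galactose Day 6 replicate 1 was the highest of all.

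**Figure D1:**
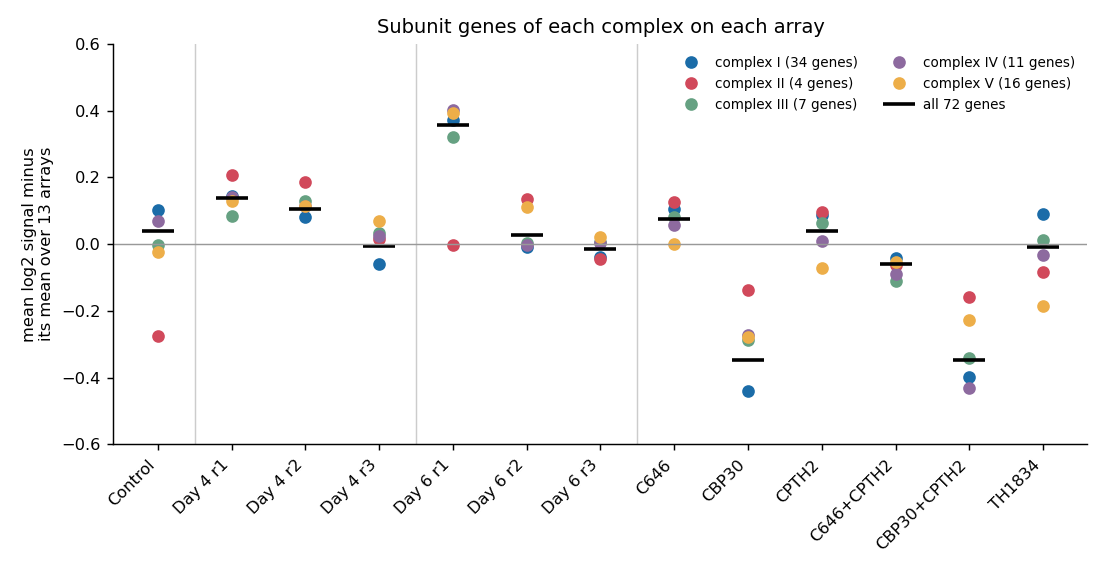
Mean log2 signal of the kept subunit genes of each complex (coloured points) and of all 72 genes (black bars) on each of the 13 arrays, shown as the difference from its own mean over the arrays. The black bars are lowest with CBP30 and CBP30+CPTH2 and highest in galactose Day 6 replicate 1, and complex II is lowest in the control.

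Across the 13 arrays, each gene was set against the mean of the other 71 genes. The median Pearson r was 0.64, 29 genes were above 0.7 and 7 were below 0, while the median over all 2556 pairs of genes was 0.35. These r values describe 13 arrays that share groups and normalization, and carry no test. The genes most like the rest were Ndufa6, an accessory subunit of complex I (r = 0.92), Cox7b, a small subunit of complex IV (r = 0.92), Uqcrq, a small subunit of complex III (r = 0.92), and Cox7c of complex IV (r = 0.91). The 7 genes below 0 were led by Ndufs1, the core subunit of complex I with several iron-sulfur clusters (r = -0.46). Atp5f1a and Atp5f1b, the alpha and beta subunits of the catalytic head of the ATP synthase, had r of -0.12 and -0.05. Ndufv1, the core subunit of complex I that binds NADH, had an r of -0.08. The rest were Sdhc and Sdha of complex II (r = -0.07 and -0.04) and the pseudogene Atp5hl1 (r = -0.10). Apart from that of Ndufs1, these r values were near 0, which shows little likeness rather than an opposite course. The other kept core subunits of complex I had r of 0.85 (Ndufs3), 0.83 (Ndufv2), 0.70 (Ndufs8) and 0.54 (Ndufs7).

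**Figure D2:**
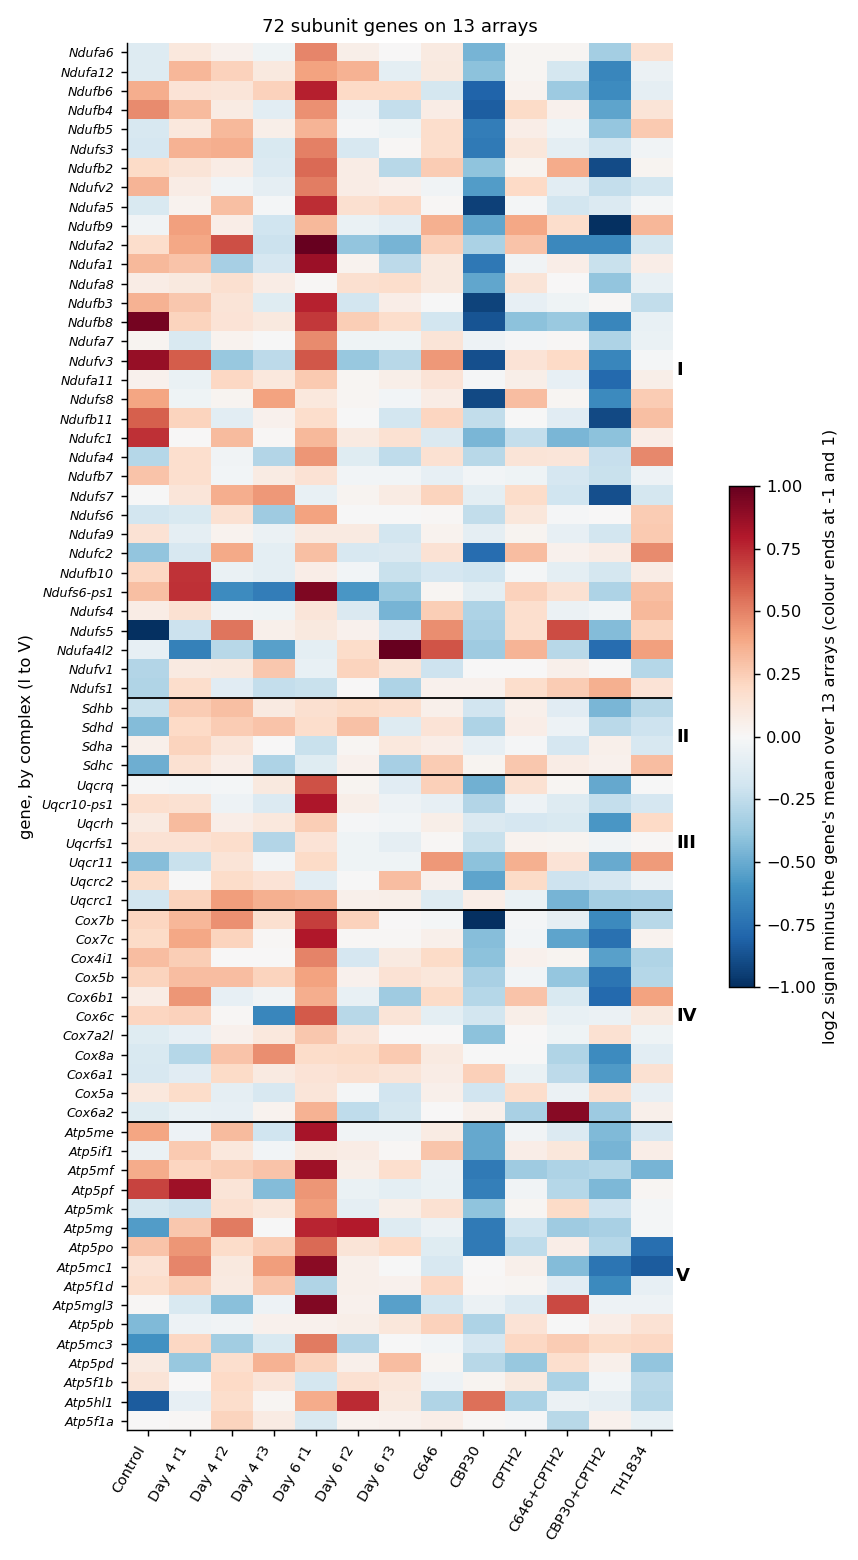
Log2 signal of each of the 72 kept genes (rows, grouped by complex I to V and ordered within a complex by likeness to the other genes) on each of the 13 arrays (columns), as the difference from the mean of the gene. Blue runs through most rows in the columns of CBP30 and CBP30+CPTH2, and red in galactose Day 6 replicate 1.

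The promoters of 4 genes are shown, because these genes stand for the patterns found. Ndufb8 and Cox7b had every inhibitor array below every galactose array, Ndufs5 was lowest in the control, and Ndufs1 went against the other genes. For Cox7b the gap was narrow, with the highest inhibitor array at 8.35 and the lowest galactose array at 8.37. Each window has 300 bases around the RefSeq gene start on the GRCr8 assembly and reads 5′ to 3′ on the strand of the gene. Capitals mark the letters of 3 motifs searched on both strands, GCGCANGCG (NRF1), CCGGAAG (ETS factors such as GABP) and ATGGCGGC (YY1), factors known to act at promoters of nuclear genes for mitochondrial proteins. The NRF1 letters were shortened by 1 base after a longer form had been searched and its counts seen. The windows lie at chr1:253362887-253363186 on the minus strand (Ndufb8), chrX:75148786-75149085 on the plus strand (Cox7b), chr5:141264353-141264652 on the minus strand (Ndufs5) and chr9:72073556-72073855 on the minus strand (Ndufs1).
Ndufb8: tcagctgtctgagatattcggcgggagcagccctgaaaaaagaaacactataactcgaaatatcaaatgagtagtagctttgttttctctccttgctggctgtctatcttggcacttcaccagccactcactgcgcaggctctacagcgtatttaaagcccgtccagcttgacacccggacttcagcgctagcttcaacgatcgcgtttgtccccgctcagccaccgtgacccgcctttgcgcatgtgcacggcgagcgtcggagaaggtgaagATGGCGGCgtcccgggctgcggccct
Cox7b: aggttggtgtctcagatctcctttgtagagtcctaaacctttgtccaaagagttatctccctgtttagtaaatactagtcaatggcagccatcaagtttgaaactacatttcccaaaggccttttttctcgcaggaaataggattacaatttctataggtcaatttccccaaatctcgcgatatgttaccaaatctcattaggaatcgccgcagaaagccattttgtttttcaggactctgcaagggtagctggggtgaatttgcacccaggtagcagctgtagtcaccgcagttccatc
Ndufs5: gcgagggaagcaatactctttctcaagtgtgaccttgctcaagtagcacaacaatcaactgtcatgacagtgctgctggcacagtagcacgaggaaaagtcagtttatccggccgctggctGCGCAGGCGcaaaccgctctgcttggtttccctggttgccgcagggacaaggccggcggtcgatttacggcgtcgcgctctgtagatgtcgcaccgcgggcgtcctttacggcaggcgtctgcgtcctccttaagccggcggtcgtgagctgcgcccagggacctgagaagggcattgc
Ndufs1: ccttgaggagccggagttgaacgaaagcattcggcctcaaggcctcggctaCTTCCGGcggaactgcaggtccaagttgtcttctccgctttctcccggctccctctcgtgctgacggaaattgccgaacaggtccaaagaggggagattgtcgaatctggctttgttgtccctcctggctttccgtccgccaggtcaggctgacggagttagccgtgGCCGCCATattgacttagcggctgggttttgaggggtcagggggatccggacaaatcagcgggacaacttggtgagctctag
The window of Ndufb8 holds the YY1 letters, that of Ndufs5 the NRF1 letters, and that of Ndufs1 the ETS letters and the YY1 letters, both on the opposite strand, while that of Cox7b holds none of the 3 motifs. The motifs did not overlap each other in these windows.

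Of the 72 kept genes, 62 matched a RefSeq window. The NRF1 letters were in 16 of the 62 windows (25.8%), against 15.7% of the 5695 windows of genes kept on the array and 6.26% of all 27457 windows. The ETS letters were in 19 (30.6%, against 21.3% and 9.22%) and the YY1 letters in 10 (16.1%, against 7.53% and 2.76%). Of the genes lowest in both arrays with CBP30, 18 had a window, and the 3 motifs were in 5, 6 and 2 of these, against 11, 13 and 8 of the other 44. A match is a description of letters only.

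The comparison of galactose with the control asks whether subunit genes changed while the cataract formed. Their median differences were close to those of all genes, and few single genes stood out. On galactose Day 4 the median log2 difference of the 72 genes from the control was 0.04, against 0.05 over all genes kept, and on galactose Day 6 it was 0.08, against -0.01. At an adjusted p under 0.05 (limma, Benjamini-Hochberg over the 6778 genes) 0 of 72 passed on Day 4, where 3.78% of all genes passed, and 1 of 72 on Day 6, where 5.49% passed. At an unadjusted p under 0.05 there were 7 genes on Day 4 (9.72%, against 22% of all genes) and 8 on Day 6 (11.1%, against 23.7%). The differences of the 72 genes ran from -0.89 to 1.22 on Day 4 and from -0.88 to 1.24 on Day 6. The lens epithelium markers were at 6.85 in the control and at 5.02 to 6.13 in the galactose arrays, and the lens fibre markers at 10.67 and at 10.32 to 10.61, and their part in these differences was not tested. Between galactose Day 4 and Day 6 the median difference was 0.01, and 0 of 72 passed, as did 0% of all genes. Only Ndufa4l2, a relative of Ndufa4 induced by low oxygen, had an unadjusted p under 0.05 there (5.36% of all genes did), and 1 array carried it, since galactose Day 6 replicate 3 was at 7.28 and the other 5 galactose arrays were at 5.08 to 5.94.

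The gene that passed on Day 6 was Atp5hl1, a pseudogene like the d subunit of the ATP synthase. Its log2 signal was 5.003 in the control, 5.75, 6.01 and 5.85 in the Day 4 arrays and 6.20, 6.58 and 5.93 in the Day 6 arrays. All 6 galactose arrays lay above the control. The difference was 0.87 (SE 0.27, adjusted p = 0.105) on Day 4 and 1.24 (SE 0.27, adjusted p = 0.0364) on Day 6. The call was lost when galactose Day 6 replicate 1 was left out (adjusted p = 0.0542), Day 6 replicate 2 (0.0786), Day 4 replicate 2 (0.0662) or Day 4 replicate 3 (0.0662). Atp5pd, the gene of the d subunit itself, differed by 0.10 on Day 6 (SE 0.29, adjusted p = 0.869). The probe set may read transcripts of near-identical copies, so its signal is uncertain.

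In complex I, the largest positive difference was that of Ndufs5, an accessory subunit. Its log2 signal was 5.92 in the control, 6.81, 7.55 and 7.07 on Day 4, and 7.12, 7.06 and 6.85 on Day 6. The control was the lowest of the 13 arrays, as the inhibitor arrays were at 6.59 to 7.67. The difference was 1.22 on Day 4 (SE 0.29, adjusted p = 0.0531) and 1.09 on Day 6 (SE 0.29, adjusted p = 0.0637), just short of the threshold. It passed on both days when Day 4 replicate 1 was left out (adjusted p = 0.0343 and 0.0397) and when replicate 1 of both days was left out, a setting chosen after the data had been seen (adjusted p = 0.0287 and 0.045). It also passed on Day 4 with a trended and robust prior (adjusted p = 0.0438). A probe set shared by Ndufs5 and the pseudogene Ndufs5-ps2, which was not a member, showed no such difference, at 6.16 in the control and 6.04 to 6.89 in the galactose arrays. Both readings of this gene are thus unlike each other.

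The largest negative differences in complex I were those of Ndufv3, Ndufb8, Ndufc1 and Ndufb11, all accessory subunits. The log2 signal of Ndufb8 was 7.02 in the control, 6.28, 6.20 and 6.16 on Day 4 and 6.77, 6.31 and 6.24 on Day 6, so that the control lay above all 6 galactose arrays. The difference was -0.80 on Day 4 (SE 0.25, adjusted p = 0.105) and -0.58 on Day 6 (SE 0.25, adjusted p = 0.198), and that on Day 4 passed without galactose Day 6 replicate 1 (adjusted p = 0.0482). Without replicate 1 of both days the difference passed on Day 4 (adjusted p = 0.0351) and on Day 6 (adjusted p = 0.0384). Ndufc1 differed by -0.62 on Day 4 and -0.54 on Day 6, and Ndufb11 by -0.55 and -0.60, with adjusted p of 0.144 to 0.207. In all, 7 genes had the control above all 6 galactose arrays (Ndufa9, Ndufb4, Ndufb7, Ndufb8, Ndufb11, Ndufc1 and Ndufv3), all in complex I, while 23.6% of all genes did. The core subunits did not pass on Day 6, with differences of 0.39 for Ndufv1, 0.29 for Ndufs3, 0.13 for Ndufs1, 0.02 for Ndufs7, -0.13 for Ndufv2 and -0.36 for Ndufs8, with adjusted p of 0.317 to 0.966.

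Ndufv3 separated replicates of the same group. Its log2 signal was 8.11 in the control, 7.85, 6.86 and 6.98 in Day 4 replicates 1 to 3, and 7.86, 6.87 and 6.96 in Day 6 replicates 1 to 3. Replicate 1 of each day was close to the control and the other 4 arrays lay lower. These 2 arrays also had the lowest lens epithelium markers of the galactose arrays, 5.02 and 5.22 against 5.76 to 6.13, and the part of this was not tested. The pseudogene Ndufs6-ps1 had the same form, with 7.56, 6.20 and 6.13 on Day 4, 7.76, 6.25 and 6.45 on Day 6, and 7.13 in the control. For Ndufv3 the differences from the control, -0.89 on Day 4 and -0.88 on Day 6, had an SE of 0.46 (adjusted p = 0.304 and 0.284). Without replicate 1 of both days they were -1.19 and -1.20 and passed (adjusted p = 0.0195 and 0.0153), as did those of Ndufs6-ps1, at -0.96 and -0.78 (adjusted p = 0.0321 and 0.0422).

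Complex II, the smallest complex, had the largest median difference of the 5 complexes, 0.45 on Day 4 and 0.38 on Day 6. Its mean log2 signal was 6.53 in the control and 6.76 to 7.01 in the 6 galactose arrays, which did not overlap. Of its genes, 3 of 4 had the control below all 6 galactose arrays, whereas 20 of all 72 genes did (27.8%), near the 27.2% of all genes. Sdhd, a membrane anchor subunit, was at 5.92 in the control, 6.56, 6.61 and 6.64 on Day 4, and 6.53, 6.65 and 6.23 on Day 6. Its difference was 0.68 on Day 4 (SE 0.23, adjusted p = 0.119) and 0.55 on Day 6 (SE 0.23, adjusted p = 0.182).

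Sdhb, the iron-sulfur subunit, was at 7.86 in the control, 8.34, 8.38 and 8.17 on Day 4, and 8.25, 8.27 and 8.25 on Day 6. Sdhc, the other membrane anchor, was at 5.48 in the control, 6.13, 6.04 and 5.66 on Day 4, and 5.85, 6.01 and 5.64 on Day 6. Their differences on Day 4 were 0.44 and 0.46, and on Day 6 0.40 and 0.36 (adjusted p = 0.24 to 0.444). Sdha, the flavoprotein that oxidises succinate, overlapped the control, with differences of 0.07 and -0.08. No gene of complex II passed the test, and the control level rests on 1 array.

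In complexes III and IV the differences were small and none passed. Uqcrc1, a core protein of complex III, differed by 0.51 on Day 4 (SE 0.22, adjusted p = 0.207) and 0.33 on Day 6, and Uqcr11, its smallest subunit, by 0.39 and 0.46. Uqcrc2, the other core protein, and Uqcrfs1, the Rieske iron-sulfur protein, differed by -0.13 and -0.14 on Day 6. In complex IV the Day 6 differences ran from 0.36 for Cox8a and 0.30 for Cox6a1 to -0.14 for Cox5a and -0.17 for Cox4i1. Cox8a, Cox6a1 and Cox4i1 are the common isoforms of their subunits. Cox7a2l, which joins complexes into supercomplexes, differed by 0.25.

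In complex V, Atp5mg, the g subunit of the membrane part, was at 7.17 in the control, 7.99, 8.24 and 7.72 on Day 4, and 8.49, 8.52 and 7.60 on Day 6, with the control below all of them. The difference was 0.82 on Day 4 (SE 0.37, adjusted p = 0.24) and 1.04 on Day 6 (SE 0.37, adjusted p = 0.137). Atp5mc3, one of the genes for subunit c of the rotating ring, differed by 0.51 and 0.68, and Atp5pf, a stalk subunit, by -0.49 and -0.58. Atp5f1a and Atp5f1b, of the catalytic head, differed by -0.03 and -0.10 on Day 6, and Atp5f1d by -0.25. Atp5if1, which inhibits the ATP synthase and is no subunit of it, was at 9.33 in the control and had means of 9.50 on Day 4 and 9.45 on Day 6. None of these passed.

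The inhibitor arrays ask whether subunit genes changed in lenses treated after the cataract had formed. Each array was compared with the 3 galactose Day 6 arrays. In every comparison 0 of 72 genes passed at an adjusted p under 0.05. The share of all genes that passed was 0% for C646, 0% for CBP30, 0.0295% for CPTH2, 0.856% for C646+CPTH2, 0% for CBP30+CPTH2 and 0.059% for TH1834.

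**Figure D3:**
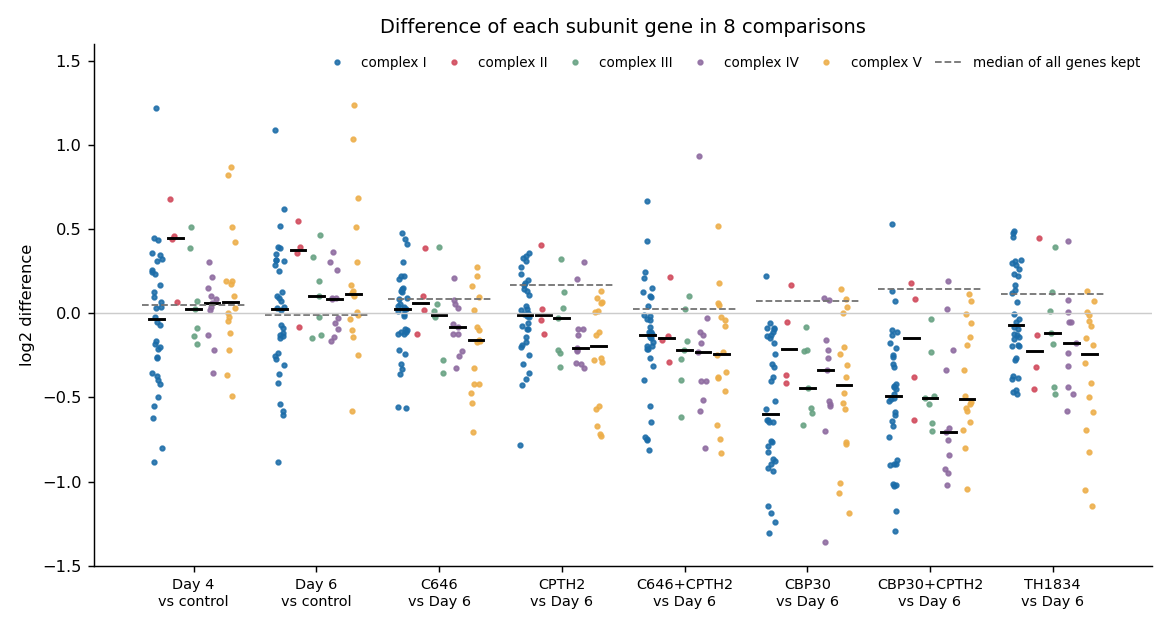
Log2 difference of each kept subunit gene (points, coloured by complex) in the 2 comparisons with the control and in the 6 comparisons of an inhibitor array with galactose Day 6. Short black bars are the medians of the complexes and dashed lines the medians of all 6778 genes. The points sink below the dashed line with CBP30 and CBP30+CPTH2, and complex II is the highest bar in both comparisons with the control.

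The 2 arrays with CBP30 had the lowest subunit signals. With CBP30 the median difference from galactose Day 6 was -0.43, against 0.07 over all genes, and 64 of 72 differences were negative. At an unadjusted p under 0.05, 23 genes (31.9%) were lower and 0 higher, while 6.09% of all genes were lower by this rule. With CBP30+CPTH2 the median was -0.51, against 0.15 over all genes, with 63 of 72 negative, and 28 genes (38.9%) were lower and 0 higher, against 5.47% of all genes. Centring each array on its median moved the median of the subunit genes to -0.53 with CBP30 and to -0.70 with CBP30+CPTH2.

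Galactose Day 6 replicate 1 took part in these differences. It lay above the other 5 galactose arrays in 38 of 72 subunit genes, against 11.8% of all genes. Its lens epithelium markers had a mean of 5.22, against 6.13 and 6.05 in replicates 2 and 3, and their part in the result was not tested. Without this array the medians were -0.37 with CBP30 and -0.36 with CBP30+CPTH2, with 19 and 23 genes lower at an unadjusted p under 0.05, against 6.62% and 6.2% of all genes. The lens epithelium markers of the arrays with CBP30 were at 5.86 and 5.84, within the range of the galactose arrays (5.02 to 6.13), and their lens fibre markers at 10.38 and 10.35, within that of 10.32 to 10.61.

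A rank over all arrays uses no mean of the Day 6 group. Both arrays with CBP30 lay below the other 11 in 21 of 72 genes (29.2%), against 3.82% of all genes. By complex this held for 14 of 34 genes in complex I, 0 of 4 in complex II, 2 of 7 in complex III, 2 of 11 in complex IV and 3 of 16 in complex V. The 2 in complex III include the pseudogene Uqcr10-ps1, and the 3 in complex V include Atp5if1, which is no subunit. The difference between complexes was not tested. Complex I had the lowest median with CBP30, -0.60, followed by complexes III (-0.44), V (-0.42), IV (-0.34) and II (-0.21). With CBP30+CPTH2 complex IV was lowest at -0.71, followed by V (-0.51), III (-0.51), I (-0.49) and II (-0.15). Complex II had the median nearest to 0 in both arrays.

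The genes that led these differences are named here after their values were seen. Cox7b was at 7.32 with CBP30 and 7.73 with CBP30+CPTH2, while the other 11 arrays were at 8.09 to 9.06. The difference from galactose Day 6 was -1.36 with CBP30 (SE 0.28, adjusted p = 0.107) and -0.95 with CBP30+CPTH2 (adjusted p = 0.126). Ndufa5, an accessory subunit of the matrix arm of complex I, was at 6.83 with CBP30 and at 7.59 to 8.51 in the other 12 arrays. It differed by -1.30 with CBP30 (SE 0.28, adjusted p = 0.107), but CBP30+CPTH2, at 7.63, did not stand apart from the control at 7.62. Ndufb6, of the membrane arm, was at 5.41 with CBP30, 5.57 with CBP30+CPTH2 and 5.84 to 6.98 elsewhere.

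Among the core subunits of complex I, 3 of 6 kept genes lay lowest in both arrays with CBP30. Ndufs8, an iron-sulfur subunit, was at 5.72 with CBP30 and 5.99 with CBP30+CPTH2, and at 6.57 to 7.02 in the other 11 arrays. Ndufs1 went the other way, with 5.73 and 6.04 in these arrays, against 5.46, 5.68 and 5.37 in galactose Day 6. This was not particular to CBP30, as all 6 inhibitor arrays were at 5.73 to 6.04. Galactose Day 4 replicate 1 was at 5.86. Ndufv1 differed by -0.09 with CBP30 and -0.10 with CBP30+CPTH2. The core subunits were therefore not uniform.

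The ATP synthase was also uneven. Its membrane and stalk subunits Atp5mf, subunit f, and Atp5po, which holds the catalytic head to the stalk, differed by -1.07 and -1.01 with CBP30 (SE 0.30 and 0.24, adjusted p = 0.169 and 0.134). With CBP30+CPTH2 these 2 genes were at 8.42 and 7.27, against Day 6 means of 9.07 and 7.85. Other membrane and stalk genes were not uniform. Atp5me and Atp5pf lay lowest in both arrays with CBP30. Atp5mc3 was at 6.54 with CBP30 and 6.89 with CBP30+CPTH2, inside the galactose Day 6 range of 6.41 to 7.22. Atp5pb was at 7.22 with CBP30 but 7.59 with CBP30+CPTH2, against 7.57, 7.59 and 7.64. The alpha and beta subunits of the head did not follow Atp5mf and Atp5po. Atp5f1a was at 7.91 with CBP30 and 7.95 with CBP30+CPTH2, against 7.74, 7.93 and 7.94 in galactose Day 6, and Atp5f1b at 9.29 and 9.23, against 9.08, 9.41 and 9.37. Atp5f1d, the delta subunit, was at 9.34 with CBP30, inside the galactose Day 6 range of 9.02 to 9.37, but at 8.69 with CBP30+CPTH2, the lowest of the 13 arrays.

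The 4 other treatments left the subunit genes closer to galactose Day 6. The medians were -0.01 with C646, -0.07 with CPTH2, -0.16 with C646+CPTH2 and -0.13 with TH1834, against 0.09, 0.17, 0.03 and 0.11 over all genes. At an unadjusted p under 0.05 there were 1, 4, 8 and 5 genes, against 4.06%, 12.7%, 16.5% and 14% of all genes. With TH1834 4 of the 5 were in complex V, led by Atp5mc1, another gene for subunit c (-1.15, SE 0.35, adjusted p = 0.252), and Atp5po (-1.05, SE 0.24, adjusted p = 0.183). Atp5po was at 6.80 with TH1834, 6.85 with CBP30 and 7.27 to 8.12 in the other 11 arrays. Cox6a2, the heart and skeletal muscle isoform of subunit VIa, was at 5.02 with C646+CPTH2 and at 3.75 to 4.46 in the other 12 arrays, so it was kept only through this array and its difference has no exact size. Lens epithelium markers were at 5.76 with C646, 5.30 with CPTH2, 4.45 with C646+CPTH2 and 6.48 with TH1834. Those with C646+CPTH2 and TH1834 lay outside the range of the galactose arrays (5.02 to 6.13), and their part was not tested.

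With the 6 inhibitor arrays taken as 1 group of different treatments, the median difference from galactose Day 6 was -0.20, against 0.11 over all genes. At an adjusted p under 0.05, 0 of 72 genes passed, and 0.0148% of all genes did. At an unadjusted p under 0.05, 18 genes were lower, against 3.69% of all genes, and 1, Ndufs1, was higher (0.35, SE 0.14, adjusted p = 0.238). Without galactose Day 6 replicate 1, 7 genes were lower (2.92% of all genes were) and the median was -0.12.

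In 6 of 72 genes all 6 inhibitor arrays lay below all 6 galactose arrays, against 0.752% of all genes. They were Ndufb6, Ndufb8, Sdhb, Cox7b, Atp5mf and Atp5po, and so came from complexes I, II, IV and V. The gap could be narrow. The highest inhibitor array and the lowest galactose array were at 8.35 and 8.37 for Cox7b, and at 8.13 and 8.17 for Sdhb. Ndufb8 was at 5.88 with C646, 5.20 with CBP30, 5.65 with CPTH2, 5.69 with C646+CPTH2, 5.41 with CBP30+CPTH2 and 5.98 with TH1834, while the galactose arrays were at 6.16 to 6.77 and the control at 7.02. The 3 sets of arrays did not overlap, an order held by 1 of 72 subunit genes and 0.0738% of all genes. Ndufb8 is singled out here because of this order, and the control is 1 array. The difference of the inhibitor arrays from galactose Day 6 was -0.80 (SE 0.18, adjusted p = 0.0787), short of the threshold.

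Sdhb had its highest signals in galactose. It was at 7.86 in the control, 8.17 to 8.38 in the galactose arrays, and 8.13, 7.89, 8.13, 7.97, 7.63 and 7.81 with C646, CBP30, CPTH2, C646+CPTH2, CBP30+CPTH2 and TH1834. The inhibitor arrays thus lay below the galactose arrays and on both sides of the control. The difference from galactose Day 6 was -0.33 (SE 0.14, adjusted p = 0.253).

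**Figure D4:**
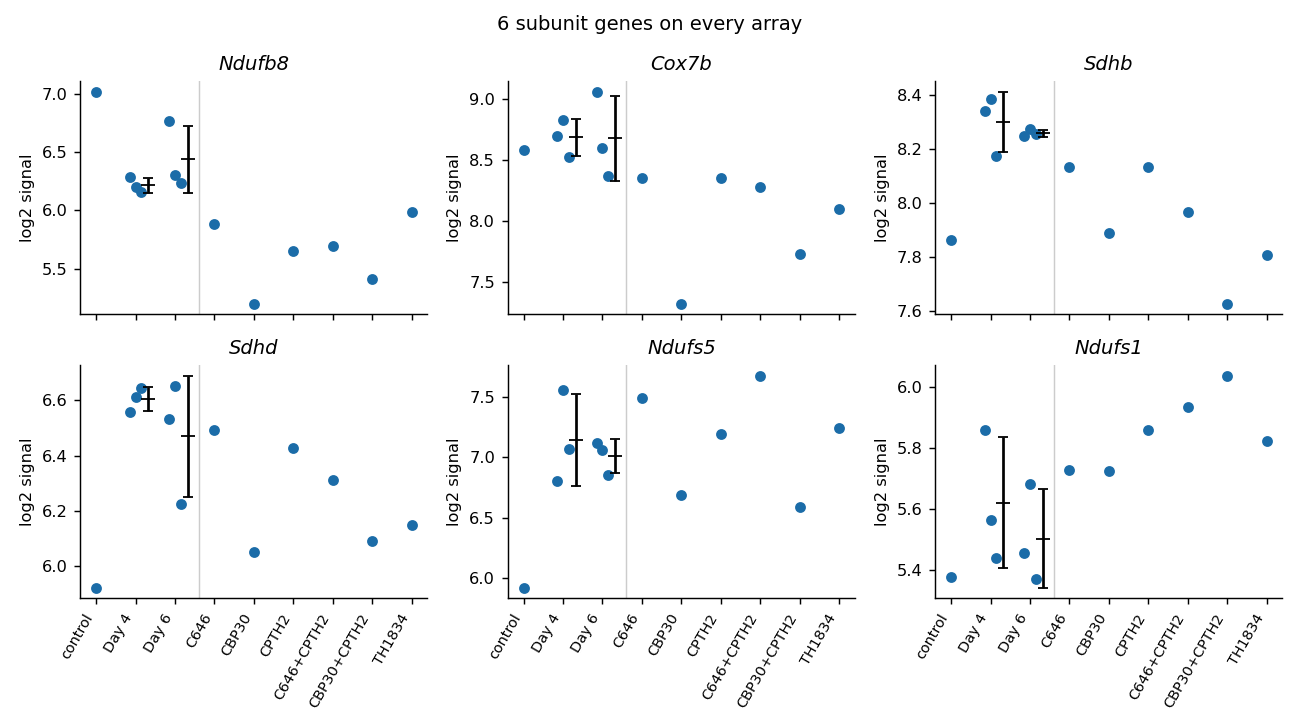
Log2 signal of 6 subunit genes on every array, with 1 point for each array and, beside galactose Day 4 and Day 6, the mean with its SD (n = 3). The vertical axes are on a log2 scale and do not start at 0. Ndufb8 steps down from the control to the galactose arrays and to the inhibitor arrays, Cox7b is lowest with CBP30, Sdhb and Sdhd are low in the control, Ndufs5 is lowest in the control, and Ndufs1 is highest with CBP30+CPTH2.

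The study counted C646+CPTH2, CBP30+CPTH2 and TH1834 as effective against opacity. CPTH2 by itself was described there as weakly effective and was placed here with C646 and CBP30. Set against C646, CBP30 and CPTH2, the former had a median difference of -0.04 in the subunit genes. At an adjusted p under 0.05, 0 of 72 genes passed and 0% of all genes did, and 4 (5.56%, against 4.2% of all genes) had an unadjusted p under 0.05, all lower (Ndufs7, Uqcrc1, Cox5b and Atp5mc1). The median was -0.17 without CBP30 and -0.10 without TH1834, but 0.08 without CBP30+CPTH2, 0.04 without CPTH2 and 0.03 without C646, so its sign depended on single arrays. The array of CBP30, counted as ineffective, and that of CBP30+CPTH2, counted as effective, were the lowest 2 for the subunit genes.

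Other gene lists around the same pathway were set beside the subunit genes. Of 23 kept assembly factors of the complexes, 3 (13.04%) lay lowest in both arrays with CBP30, against 3.82% of all genes, and the median difference was -0.22 with CBP30 and -0.07 with CBP30+CPTH2. Tmem126a, which acts in the assembly of complex I, differed by -0.92 with CBP30 (SE 0.26, adjusted p = 0.169). For 18 genes of the tricarboxylic acid cycle and pyruvate dehydrogenase the medians were -0.07 and 0.09. Cs, citrate synthase, differed with CBP30 by 0.62 (SE 0.21, adjusted p = 0.229), and Suclg1, a subunit of succinyl-CoA ligase, differed by -0.91 (SE 0.23, adjusted p = 0.143). A list of 9 genes for cytochrome c, carriers and pores had medians of -0.40 and 0.04, and it also holds the subunit genes Ndufab1 and Cyc1, which the naming rule did not take in. Ndufab1, the acyl carrier protein of complex I, differed by -0.85 with CBP30 (SE 0.23, adjusted p = 0.161) and by -0.04 with CBP30+CPTH2. Cyc1, cytochrome c1 of complex III, differed by -0.37 and -0.19.

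For 8 regulators of mitochondrial gene expression the medians were 0.09 with CBP30 and 0.32 with CBP30+CPTH2. In the last 3 lists, of 18, 9 and 8 genes, 0 genes lay lowest in both arrays, a count that says little beside 3.82% of all genes. Gabpa, the DNA-binding subunit of GABP, differed by 0.52 with CBP30 and by 1.02 with CBP30+CPTH2 (SE 0.28, adjusted p = 0.399 and 0.111). None of the genes in these 4 lists passed in any comparison with the control or with galactose Day 6. In the comparison with the control the nearest to the threshold on Day 6 were Slc25a3, the phosphate carrier (-0.77, SE 0.20, adjusted p = 0.0586), and Tmem70, an assembly factor of the ATP synthase (0.89, SE 0.23, adjusted p = 0.0596).

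Low signals with CBP30 were not particular to the subunit genes. Lists of other large complexes, matched by symbol, were set beside them. Both arrays with CBP30 lay lowest in 14 of 45 cytosolic ribosomal protein genes (31.1%), 15 of 64 mitochondrial ribosomal protein genes (23.4%) and 7 of 33 proteasome subunit genes (21.2%), against 3.82% of all genes. The medians with CBP30 were -0.33, -0.31 and -0.28, and with CBP30+CPTH2 they were -0.37, -0.19 and 0.01.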

How the data were processed

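Total RNA of 13 lenses was hybridised to GeneChip Rat Gene 2.0 ST arrays. The deposited table holds log2 signals of 36685 probe sets, which the authors preprocessed in R. How background, scaling between arrays and probe summaries were handled is not given in the sources used here. The values were used unchanged. The array medians over the genes kept were 5.62 to 5.89. Of the probe sets, 18511 have 1 gene symbol, 575 several and 17599 none, and 0 symbols changed against RefSeq. Detection above background was not assessed, so signals under 5 have no exact size.

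All arrays were fitted in limma 3.58.1 (R 4.3.3) with 1 group per condition (4 residual degrees of freedom, prior SD 0.221), two-sided, adjusted over 6778 genes. The 6 inhibitor arrays as 1 group and the effective against ineffective treatments were fitted separately (9 and 8 residual degrees of freedom). The fit was tested on simulated data.

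The members and lists were chosen with earlier results of these data known. Named genes are those called, the 2 highest and 2 lowest Day 6 differences in each complex, core subunits and isoforms, with others marked in the text. Motifs were searched in Python 3.11.15 with pandas 2.3.3. Alternatives were other filters, scalings, priors, probe set means, the replicate number as a block, and leaving out each array.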

Additional observations from a re-analysis of the deposited data

Results flagged for a closer look

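The 8 probe sets that carry several symbols were no members and were outside the comparisons. Of the 2 shared by Cox7a2 and Cox7a2l2, 1 showed a signal above the control. The mean of the 6 galactose arrays exceeded the control by 0.25 on the log2 scale, with 8.74 to 9.49 in the galactose arrays and 8.73 in the control. The lowest galactose array was within 0.01 of the control, and no test was run. The other probe set of these genes had a galactose mean 0.13 above the control. Its galactose arrays overlapped the control, with 9.27 to 9.98 in the galactose arrays and 9.35 in the control. Of the 8, 2 differed more and in the other direction, with all 6 galactose arrays below the control. The probe set of Ndufa3 and Ndufa3-ps3 was at 8.13 in the control and 6.69 to 7.58 in galactose, and that of Atp5mc2 and Atp5mc2l1 at 8.16 and 7.65 to 7.82. Both probe sets of Cox7a2 and Cox7a2l2 lay lowest in the 2 arrays with CBP30, at 8.48 and 7.81 for the first and 8.92 and 8.41 for the second, as did that of Ndufs5 and Ndufs5-ps2.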

How the results depend on the processing

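Of the main counts and medians recomputed, 221 stayed within the set bounds and 15 moved. Of 42 medians of all subunit genes or of a complex, 17 changed sign under at least 1 alternative. For all subunit genes the median ran from -0.01 to 0.09 on Day 4 against the control, from -0.06 to 0.14 on Day 6, from -0.08 to 0.09 between the days and from -0.17 to 0.08 for effective against ineffective treatments. No called gene changed sign. On galactose Day 4 the count of subunit genes called, 0, became 1 with a trended and robust prior (Ndufs5), 2 with the replicate number as a block (Ndufs5 higher, adjusted p = 0.0363, and Ndufv3 lower, adjusted p = 0.0443) and 4 with replicate 1 left out on both days (added once the data had been seen); leaving out 1 array gave 0 to 1. On galactose Day 6 the count of 1 became 0 with no filter, 4 with the replicate block (Atp5hl1 with Ndufs5, Ndufv3 and Atp5mg, adjusted p = 0.043, 0.0388 and 0.0384) and 5 without replicate 1 of both days; leaving out 1 array gave 0 to 2. For C646+CPTH2 the count became 1 (Cox6a2, under 5 on the other 12 arrays) without replicate 1 of both days, and for CBP30+CPTH2 it became 1 (Ndufb9) with the replicate block. The cause was not tested. The counts over all genes, 256 and 372, ran from 83 to 662 on Day 4 and from 118 to 903 on Day 6.

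The replicate numbers of Day 4 and Day 6 were not treated as pairs. Deviations from the group means correlated at 0.34, 0.08 and 0.25 for numbers 1, 2 and 3, and number 2 of Day 4 correlated better with number 3 of Day 6 (0.14). The block changed no other count. For single genes and medians of complexes 35 values moved, 19 passed the threshold only under an alternative, 5 no longer passed it and 12231 stayed. The few arrays and the lone control and inhibitor arrays limit what could be detected.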
